A study of Homo sapiens with 8 samples.

Results

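The genes described here encode the actins, the chains of non-muscle myosin, and the proteins that bind, bundle, cap or sever actin filaments, together with the transcription factor SRF and its cofactors. They were given as 39 gene names, and every probe set whose single annotated symbol is one of these names was taken. This gave 37 probe sets for 36 of the 18417 genes tested. TPM3, FLNC and MRTFA were not analysed here, because no probe set in the annotation used carries them as its only symbol. TPM4 has a pair of probe sets, and the one with the higher mean stood for the gene. The other TPM4 probe set differed by 0.056 on the log2 scale (limma adjusted p = 0.449), and neither passed the test.

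Actin monomers assemble into filaments, and non-muscle myosin pulls on bundles of these filaments in stress fibres, which end at the sites where a cell holds its substrate. Tropomyosins, calponins, transgelins and caldesmon lie along the filaments and set how firmly they are held and how myosin can act on them. Unpolymerised actin keeps the MRTF cofactors out of the nucleus; when monomers are used up, MRTFs bind SRF at CArG boxes in DNA and many genes of the cytoskeleton are transcribed.

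The cells were BT549, a human triple-negative breast cancer line with no engineered allele named in the labels, grown in RPMI with 10% serum and insulin. In the attached group, 4 cultures grew on ordinary tissue culture plastic. In the suspended group, 4 cultures spent 24 h on a poly-HEMA coating, which keeps cells from taking hold. The submitters call the 4 of each group biological replicates, so the p-values measure the spread between cultures of this 1 line. The labels give the attached cultures as 24 h in one field and 48 h in another, so time in culture and attachment cannot be told apart if the longer time holds.

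Each array gave a log2 signal per probe set, with array medians from 6.02 to 6.07. Of the genes tested, 3787 (20.6%) passed an adjusted p of 0.05 by limma, 1910 of them higher in suspension and 1877 lower. In bulk RNA, fewer cells of a type and less RNA per cell cannot be told apart. Of 7 mesenchymal markers 6 were measured. Their mean signals were 8.70 (ZEB1), 8.75 (CDH2), 10.83 (FN1), 11.36 (SPARC), 11.69 (VIM) and 11.985 (CAV1). SPARC rose by 0.37 and ZEB1 by 0.27, CDH2 fell by 0.38 and CAV1 by 0.16. VIM and FN1 did not pass the test. Of 10 luminal or epithelial markers, CDH1, ESR1 and PGR lay below 5.28. This is the 25th percentile of gene means, which serves as the reference for low signal. The other 7 lay above it, namely GATA3 (8.41), KRT18 (8.14), ERBB2 (7.50), KRT19 (6.66), KRT8 (6.39), FOXA1 (5.70) and EPCAM (5.41). GATA3 rose by 0.49 and FOXA1 by 0.18. Of 7 smooth muscle markers, 2 lay below it, ACTG2 and the defining MYH11 (5.25), and 5 above it, from CNN1 (5.40) to SMTN (6.88); MYOCD and LMOD1 rose and SMTN fell. Their mean ran from 5.76 to 5.81 over attached arrays and from 5.76 to 5.90 over suspended arrays. The mean of the 10 luminal markers ran from 6.09 to 6.20 attached and from 6.19 to 6.26 suspended. The part of such cells or programmes in the results was not tested.

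Suspended cells had less signal for a set of filament-binding and contractile genes, while none of the 4 actins passed the test. TAGLN (transgelin), CALD1 (caldesmon) and TPM1 (a tropomyosin) fell furthest, 2.48-fold, 1.96-fold and 1.77-fold, followed by the calponin CNN2 at 1.28-fold. Smaller falls were seen for the myosin chains MYH9 and MYL9, the actinin ACTN1, SRF and its partner FHL2. DSTN (destrin), which severs filaments, went the other way and rose 1.32-fold, as did the SRF cofactor MRTFB, 1.21-fold. In all, 14 of the 36 genes fell and 5 rose, and 17 did not pass the test.

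Over all genes tested, 10.2% were called lower and 10.4% higher. The members' share of falls lies above that background and their share of rises close to it. The median log2 difference of the members was −0.073, against 0.024 over all genes. Members tend to be strongly detected, and strongly detected genes were called more often. Of 4604 genes with a mean signal above the 75th percentile (7.70), 23.1% were called lower and 16.6% higher. Of the 29 members above that level, 12 were called lower and 4 higher. In 15 members all suspended values lay below all attached ones, and in 4 they lay above, against 12.2% and 12.7% of all genes. Without attached replicate 3 the falls numbered 9, the lowest count over the 8 refits that left out an array. Without attached replicate 1 they numbered 12 and without suspended replicate 1 they numbered 11. In that order, 7.91%, 8.77% and 8.35% of all genes were called lower. Only 1 member, TAGLN, changed at least 2-fold.

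**Figure D1:**
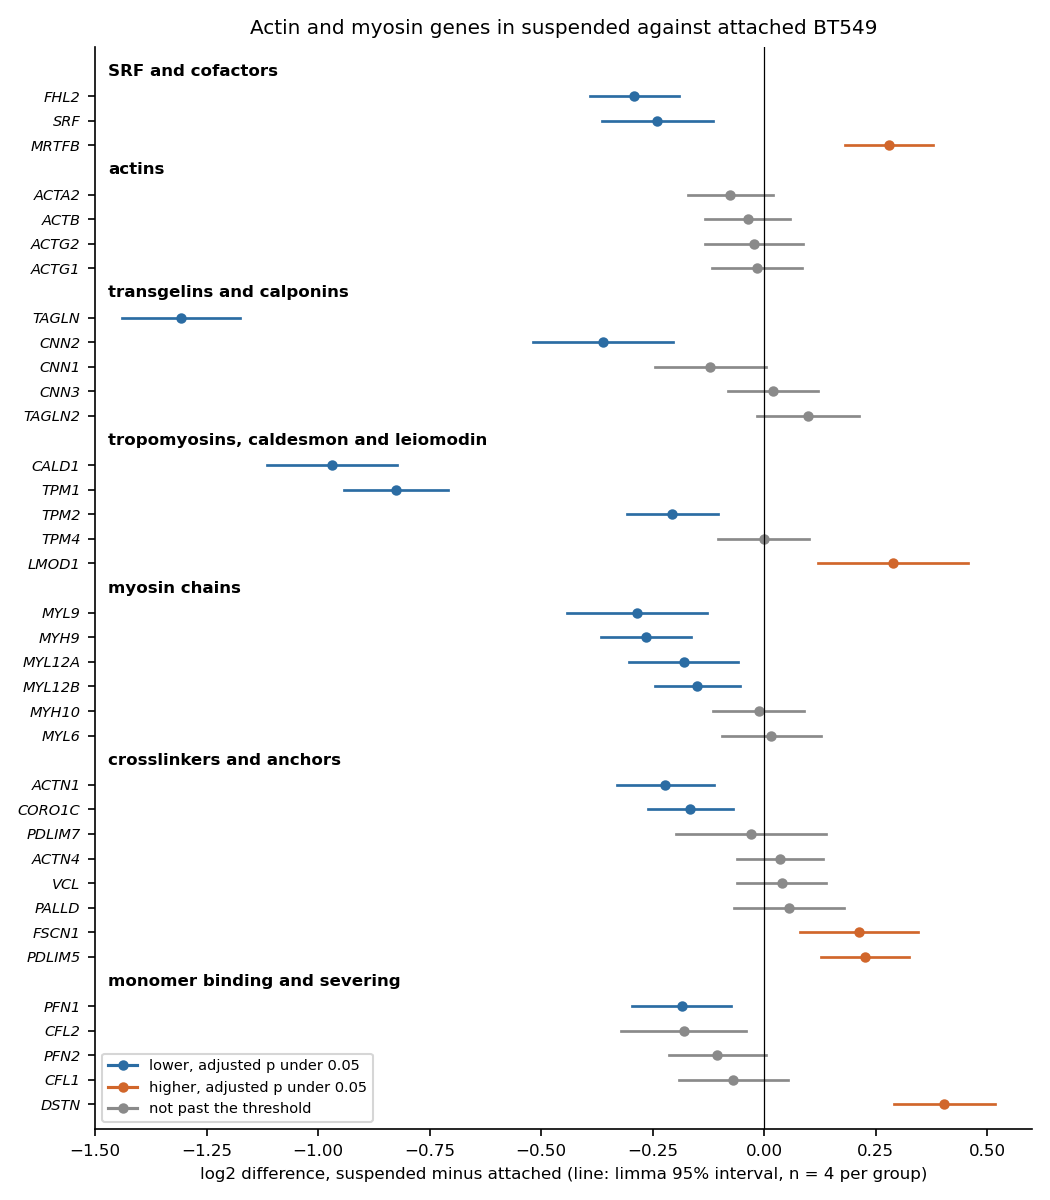
Log2 difference between suspended and attached arrays for each of the 36 genes, grouped by role, with limma's 95% interval (n = 4 per group) and colour by call at an adjusted p of 0.05. TAGLN, CALD1 and TPM1 stand apart at −1.31, −0.97 and −0.82, and all 4 actins have intervals that include 0.

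SRF is the transcription factor that binds CArG boxes, and all 3 measured genes of this group passed the test. SRF itself read 8.41, 8.61, 8.62 and 8.58 in attached replicates 1 to 4, and 8.27, 8.32, 8.38 and 8.29 in suspended replicates 1 to 4. Every suspended value lay below every attached one, with attached replicate 1 nearest to them. The log2 difference was −0.24 (SE 0.0569, limma adjusted p = 0.0111).

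MRTFB, a cofactor that carries the signal from free actin to SRF, read 7.98, 7.96, 7.98 and 8.01 in the attached arrays, and 8.22, 8.27, 8.32 and 8.24 in the suspended arrays. The groups were clearly apart and MRTFB was higher in suspension. It rose by 0.28 (SE 0.0445, adjusted p = 0.000937 by limma). FHL2, a LIM-domain protein that binds SRF and whose gene is itself known as an SRF target, fell from 8.17 ± 0.032 to 7.88 ± 0.048 (mean ± SD, n = 4 per group), a difference of −0.29 (limma adjusted p = 0.000815). For these 3 genes the call held in each of the 8 refits with 1 array left out.

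The upstream sequence of the members was searched for CArG boxes, the sites that SRF binds, as a description only. A CArG box was taken as CC, then 6 bases that are A or T, then GG; this form reads the same on both strands. RefSeq promoter windows (GRCh38.p14, from 250 bases before to 50 bases after a start site) matched 31 of the 36 genes, with 61 windows between them, as some genes have several starts. ACTB, FSCN1, MYL9, PFN2 and TAGLN were not matched. A box was present in 7 of the 31 genes (22.6%) and in 14.8% of their windows. Over all 27305 genes of the table it was present in 1.60%, and in 1.29% of windows. The list holds SRF itself and cytoskeleton genes, many of which SRF is known to drive. A higher share can follow from that choice and is not a result of suspension. The 7 genes were ACTG1, ACTG2, ACTN1, CNN2, FHL2, SRF and TPM4. By call, a box was found in 4 of 12 genes that fell, 3 of 15 not past the test and 0 of 4 that rose. Whether the fall of SRF bears on the other falls was not tested.

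Shown here are the 180 bases before the start for 3 genes that fell and 2 actins that did not pass the test, each 5′ to 3′ on the gene's strand, with the boxes in capitals. They lie at chr6:43171089-43171268 (SRF, plus strand), chr19:1026428-1026607 (CNN2, plus), chr2:105399052-105399231 (FHL2, minus, one of its starts), chr17:81512800-81512979 (ACTG1, minus) and chr2:73892828-73893007 (ACTG2, plus).
SRF: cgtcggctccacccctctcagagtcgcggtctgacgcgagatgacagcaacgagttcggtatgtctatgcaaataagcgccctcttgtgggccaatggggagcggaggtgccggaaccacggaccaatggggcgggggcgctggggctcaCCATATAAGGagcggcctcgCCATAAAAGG
CNN2: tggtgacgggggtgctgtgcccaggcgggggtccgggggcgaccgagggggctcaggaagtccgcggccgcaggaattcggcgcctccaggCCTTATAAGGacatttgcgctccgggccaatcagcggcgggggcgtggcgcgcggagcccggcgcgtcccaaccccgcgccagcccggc
FHL2: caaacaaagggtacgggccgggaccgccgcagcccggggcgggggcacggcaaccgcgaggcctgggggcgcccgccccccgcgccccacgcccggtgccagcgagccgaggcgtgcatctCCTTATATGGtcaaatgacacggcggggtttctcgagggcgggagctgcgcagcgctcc
ACTG1: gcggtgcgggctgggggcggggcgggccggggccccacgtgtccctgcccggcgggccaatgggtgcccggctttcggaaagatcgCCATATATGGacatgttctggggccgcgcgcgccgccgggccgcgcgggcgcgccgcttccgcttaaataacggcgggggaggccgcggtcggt
ACTG2: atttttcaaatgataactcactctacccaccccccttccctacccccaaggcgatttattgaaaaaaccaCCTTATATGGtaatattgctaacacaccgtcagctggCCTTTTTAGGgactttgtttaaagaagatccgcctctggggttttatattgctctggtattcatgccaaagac
The SRF window holds 2 boxes, beginning 30 and 10 bases before the start, and ACTG2 holds 2, at 110 and 73 bases before it. Single boxes begin at 89 bases in CNN2, 59 in FHL2 and 94 in ACTG1. The box CCTTATATGG is the same in FHL2, which fell, and in ACTG2, which did not pass the test. ACTN1 (CCAAAAATGG, 171 bases before one of its starts) and TPM4 (CCAAATAAGG, 173 bases before) hold theirs further out.

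Of the members with the largest falls, neither TPM1 nor CALD1 has a box in its windows, which says only that these letters are not within them. The motif bound by the TEAD partners of YAP, GGAATG or CATTCC on the other strand, was found in 13 of the 31 genes (41.9%), against 16.7% of all genes. By call, it was found in 6 of 12 genes that fell (ACTN1, CALD1, FHL2, MYH9, MYL12A and PFN1), 2 of 4 that rose (LMOD1 and MRTFB) and 5 of 15 not past the test. By window the shares were 23.0% and 14%; the table holds 61 windows for 31 members and 35116 for 27305 genes. TATAAA or TTTATA was found in 11.5% of the members' windows and 11.5% of all windows, or by gene in 19.4% of members and 14% of all genes. Over the genes tested on the arrays alone, its share was 9.06% of windows and 11.9% of genes. For the TEAD motif these shares were 12.1% and 15.5%. By call, TATAAA or TTTATA was found in 4 of 12 genes that fell, 0 of 4 that rose and 2 of 15 not past the test. The motif counts are descriptions, and 1 motif match is not a bound site.

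The 4 actins, which form the filaments themselves, did not pass the test. ACTB (cytoplasmic beta-actin) read 12.74, 12.76, 12.76 and 12.76 in the attached arrays, and 12.66, 12.76, 12.70 and 12.74 in the suspended arrays. ACTG1 (gamma-actin) read 12.58, 12.63, 12.65 and 12.61 attached, and 12.59, 12.64, 12.65 and 12.53 suspended. The groups overlap for both genes. Their differences were −0.037 (limma 95% interval −0.13 to 0.06) and −0.016 (−0.12 to 0.09), and both changed sign when the arrays were quantile normalized. The 2 genes have near-identical coding sequences, and how far each probe set reads the other was not tested. Both signals lie near the top of the scale, where array maxima were 13.7, and whether the scale is compressed there was not tested.

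ACTA2, the smooth muscle alpha-actin that marks contractile fibroblasts, went from 10.03 ± 0.036 to 9.95 ± 0.026 and its groups did not overlap, but the difference of −0.077 was not past the test (limma adjusted p = 0.253). ACTG2, the smooth muscle gamma-actin, had a mean signal of 5.20 attached and 5.18 suspended, below the 25th percentile of gene means, with overlapping groups. Over the 4 actins the intervals reached no lower than −0.17, at ACTA2.

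**Figure D2:**
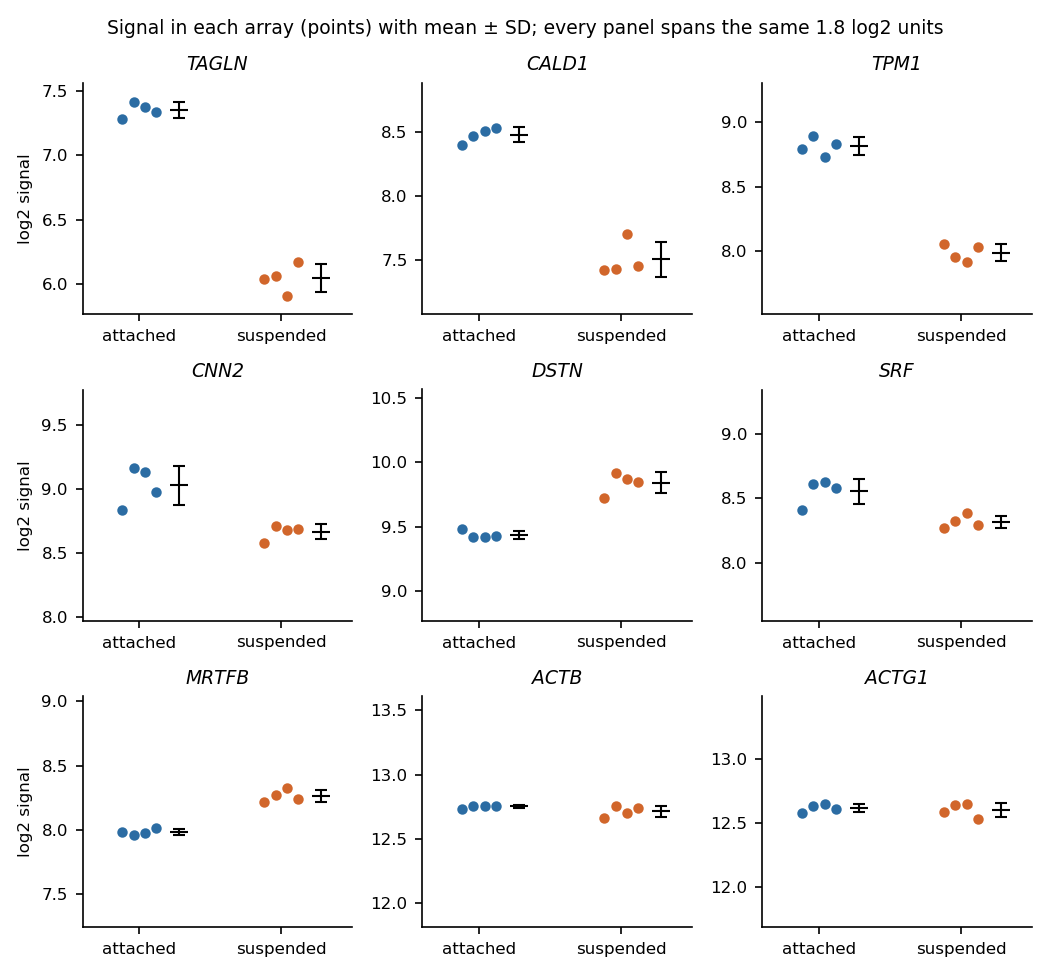
Log2 signal of 9 members in each array (points; attached in blue, suspended in orange), with mean and SD beside them; every panel covers the same span, so distances can be compared between panels. TAGLN, CALD1 and TPM1 separate widely, CNN2, SRF, MRTFB and DSTN by less, and ACTB and ACTG1 overlap.

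Transgelins and calponins are small related proteins that coat actin filaments. TAGLN read 7.28, 7.42, 7.38 and 7.33 in the attached arrays, and 6.04, 6.06, 5.91 and 6.17 in the suspended arrays. The groups lie more than 1 log2 unit apart. The difference was −1.31 (SE 0.0605, limma adjusted p = 9.38e-08), which ranked 4 among all 18417 genes when ordered from the largest fall. CCN1, a matrix-associated protein and known target of both SRF and YAP, fell by 1.93 (SE 0.0621) on the same arrays, the largest fall of all genes tested. TAGLN2, the relative that is found in many cell types, read 10.34 ± 0.056 attached and 10.44 ± 0.072 suspended, and did not pass the test.

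CNN2 (calponin 2), which steadies filaments in non-muscle cells, read 8.84, 9.16, 9.13 and 8.97 in the attached arrays, and 8.58, 8.71, 8.68 and 8.69 in the suspended arrays. Attached replicate 1 lay closest to the suspended group, and the groups did not overlap. It fell by 0.36 (SE 0.0712, limma adjusted p = 0.00373). The smooth muscle calponin CNN1 (−0.12, adjusted p = 0.167) and CNN3 (0.019, adjusted p = 0.813) were not past limma's threshold; CNN1 had a mean of 5.40, close to the low-signal reference.

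Tropomyosins wind along the actin filament, caldesmon binds tropomyosin, actin and myosin, and leiomodins start new filaments in muscle. TPM1 read 8.80, 8.90, 8.73 and 8.83 in the attached arrays, and 8.05, 7.95, 7.92 and 8.03 in the suspended arrays. The 2 groups are tight and far apart. The difference was −0.82 (SE 0.0530, limma adjusted p = 1.19e-06; rank 41 from the largest fall).

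CALD1 read 8.40, 8.47, 8.50 and 8.53 attached, and 7.43, 7.44, 7.70 and 7.46 suspended. Suspended replicate 3 is above the other suspended arrays but still far below every attached one. CALD1 fell by 0.97 (SE 0.0665, limma adjusted p = 2.04e-06; rank 26). TPM2 fell by 0.21 (SE 0.0464, adjusted p = 0.00815 by limma), whereas TPM4 differed by −0.0016 with a 95% interval from −0.10 to 0.10. One probe set stands for each of TPM1, TPM2 and CALD1, so their muscle and non-muscle splice forms are measured together.

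LMOD1, leiomodin 1, read 5.37, 5.31, 5.22 and 5.43 attached, and 5.58, 5.52, 5.54 and 5.85 suspended, the last being the highest by far. It rose by 0.29 (SE 0.0764, limma adjusted p = 0.0197), but missed the threshold when attached replicate 3 was left out. Over the 8 refits the rise was 0.21 to 0.32. Its attached mean of 5.33 is close to the low-signal reference of 5.28, and without a background measure the size of its rise is uncertain.

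Non-muscle myosin is built of heavy chains (MYH9, MYH10), regulatory light chains (MYL9, MYL12A, MYL12B) and the essential light chain MYL6, and 4 of these 6 genes fell. MYH9, the heavy chain of the A form, read 9.29, 9.37, 9.41 and 9.32 attached, and 9.04, 9.09, 9.08 and 9.11 suspended. The groups did not overlap. The difference was −0.26 (SE 0.0460, limma adjusted p = 0.00168). MYH10, the heavy chain of the B form, differed by −0.012 (95% interval −0.11 to 0.09).

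MYL9 read 9.12, 9.40, 9.39 and 9.23 in the attached arrays, and 9.10, 9.03, 8.91 and 8.96 in the suspended arrays. The lowest attached and the highest suspended value, both of replicate 1, nearly touch. MYL9 fell by 0.29 (SE 0.0713, limma adjusted p = 0.0146), and leaving out attached replicate 3 gave an adjusted p of 0.0502 by limma. MYL12A fell by 0.18 (adjusted p = 0.0403 by limma) and MYL12B by 0.15 (adjusted p = 0.0314). The MYL12A call held only without suspended replicate 2 (−0.22 to −0.15 over the 8 refits). MYL12B passed only when attached replicate 4, suspended replicate 2 or suspended replicate 3 was the array left out (−0.17 to −0.14), and missed the threshold after quantile normalization. MYL12A and MYL12B are near-identical genes, and how far each probe set reads the other was not tested. MYL6 (0.016) was not past the threshold.

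Among proteins that crosslink filaments or anchor them, 2 fell, 2 rose and 4 were not past the test. ACTN1, the actinin of stress fibres and adhesions, read between 11.06 and 11.07 in all 4 attached arrays and between 10.79 and 10.96 in the suspended arrays. It fell by 0.22 (SE 0.0497, limma adjusted p = 0.00796), a call lost after quantile normalization. CORO1C, a coronin that binds filaments at the cell edge, fell by 0.17 (adjusted p = 0.0184 by limma); it missed the threshold when attached replicate 3 was left out and after quantile normalization. PDLIM5, a LIM protein that binds actinin, went from 9.64 to 9.71 attached up to 9.86 to 9.96 suspended, a rise of 0.23 (limma adjusted p = 0.00381).

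FSCN1, the fascin that bundles filaments in cell protrusions, rose by 0.21 (limma adjusted p = 0.0275). Its attached values (7.97 to 8.16) and suspended values (8.15 to 8.35) overlap. It passed only when attached replicate 3, suspended replicate 2 or suspended replicate 4 was the array left out, with rises of 0.18 to 0.25 over the 8 refits. VCL, the vinculin that links filaments to adhesions, differed by 0.039 (95% interval −0.06 to 0.14), ACTN4 by 0.035 (−0.06 to 0.13), PALLD by 0.055 (−0.07 to 0.18) and PDLIM7 by −0.030 (−0.20 to 0.14). None of these 4 passed the test.

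Cofilins and destrin sever old filaments, and profilins hand monomers to growing ends. DSTN read 9.48, 9.42, 9.42 and 9.43 in the attached arrays, and 9.73, 9.92, 9.87 and 9.85 in the suspended arrays. Every suspended value was higher than every attached one. It rose by 0.40 (SE 0.0512, limma adjusted p = 0.000197), the largest rise among the 36 genes. Its relatives CFL1 and CFL2 differed by −0.069 (adjusted p = 0.430) and −0.18 (adjusted p = 0.0688) by limma, neither past the threshold. PFN1 fell by 0.18 (adjusted p = 0.0230 by limma), and missed the threshold after quantile normalization and in 4 of the 8 refits, those leaving out attached replicates 2, 3 and 4 and suspended replicate 1 (−0.22 to −0.16). PFN2 (−0.10, limma adjusted p = 0.169) was not past it.

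Related genes were set against each other within each array, so that any scaling of the whole array drops out, and the change of one was subtracted from the change of the other. Of 17 pairs listed, 14 had both genes measured. The log2 difference changed by −1.41 between TAGLN and TAGLN2 (SE 0.0488), by −0.82 between TPM1 and TPM4 (SE 0.0685), by −0.25 between MYH9 and MYH10 (SE 0.0335) and by −0.26 between ACTN1 and ACTN4 (SE 0.0331). CNN3 gained 0.38 on CNN2 (SE 0.0780). The change was −0.30 for MYL9 against MYL6 (SE 0.105) and −0.11 for CFL2 against CFL1 (SE 0.0537).

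In these 7 pairs all 4 suspended arrays lay beyond all 4 attached arrays, so the exact two-sided permutation test gave 0.0286, the smallest p that 4 against 4 arrays allow. The pairs were chosen with earlier results of these data known. In each of the 7 but CFL2 against CFL1, 1 gene had passed limma's test and the other had not. Their separation therefore adds no independent support, and how often other gene pairs separate was not measured. Adjusted over the 14 pairs, the permutation p of 0.0286 becomes 0.0571, and 0 pairs passed 0.05. Unadjusted, 7 passed. CNN1 against CNN2 and PDLIM7 against PDLIM5 had an exact p of 0.0571 (adjusted p = 0.0889, permutation). Of the actin pairs, ACTA2 moved against ACTB by −0.040 (exact permutation p = 0.286), ACTB against ACTG1 by −0.021 (exact permutation p = 0.600) and ACTG2 against ACTG1 by −0.0071 (exact permutation p = 0.914). MYL12A against MYL12B differed by −0.031 (exact permutation p = 0.486), and both fell.

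**Figure D3:**
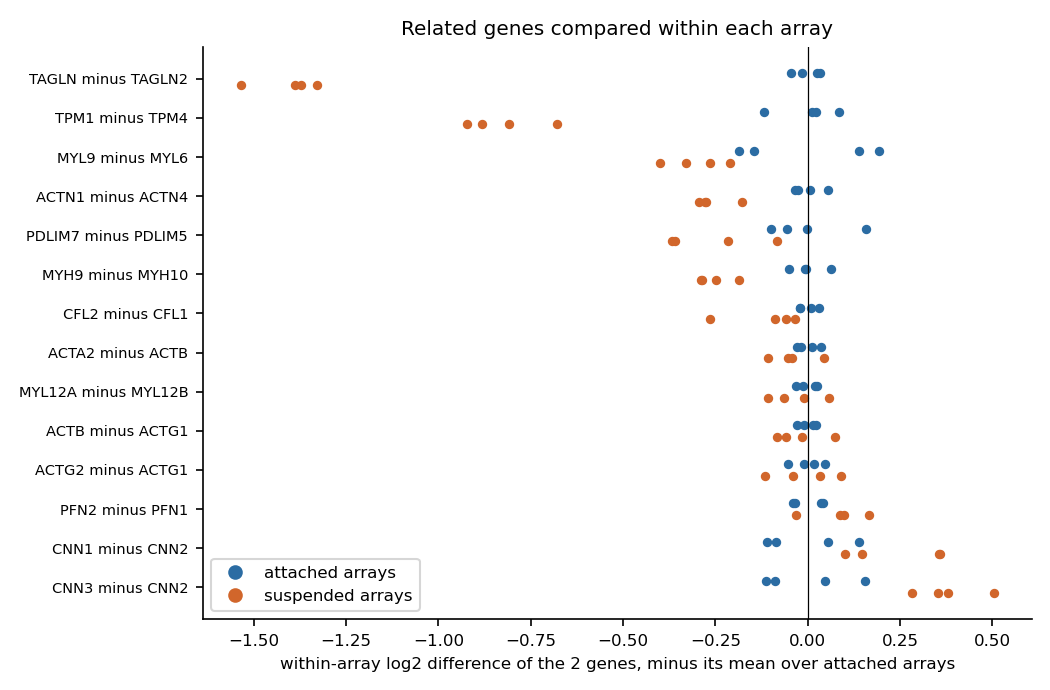
For 14 pairs of related genes, the within-array log2 difference of the 2 genes, centred on its attached mean, in each attached (blue) and suspended (orange) array. Arrays separate fully for 7 pairs, most widely for TAGLN minus TAGLN2 at −1.41, and overlap for the actin pairs and for MYL12A minus MYL12B.

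The members did not vary evenly over the replicates. Attached replicate 1 held the lowest attached value for 21 of the 36 members (58.3%), against 28.7% of all genes tested, and suspended replicate 1 held the lowest suspended value for 18 of 36, against 26.8%. The median member lay at −0.037 from the attached mean in attached replicate 1. In the suspended arrays it lay below the attached mean in all 4, at −0.12, −0.082, −0.050 and −0.074 in replicates 1 to 4. Without attached replicate 1, 12 members fell and 4 rose, and without suspended replicate 1, 11 fell and 4 rose. The share of all genes called lower was 8.77% and 8.35%, in that order.

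Other genes of the actin cytoskeleton moved in both directions. Of 104 measured in the lists used here that are not members, 17 rose and 11 fell, 26.9% together against 20.6% of all genes. The median difference was 0.016. Of the 104, 40 had a mean signal above the 75th percentile, a level at which 39.8% of genes were called. Calls of 18 of these 28 genes held in each of the 8 refits with 1 array left out; for the other 10 at least 1 refit lost the call.

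Among 29 genes of the Arp2/3 complex, formins and related proteins that start or extend filaments, 6 rose and 3 fell. Together this was 31.0%, against 20.6% of all genes. In this list 18 of 29 genes had a mean signal above the 75th percentile, a level at which 39.8% of genes were called. FMNL2, a formin of the leading edge, rose by 0.61 (SE 0.0456, limma adjusted p = 3.71e-06), ENAH by 0.31 and WASL by 0.30. The other rises, ARPC1B (0.16), ARPC5 (0.18) and FMNL3 (0.20), were each lost in 3 to 6 refits and with each array centred on its median. DIAPH3 fell by 0.59 (SE 0.0662, adjusted p = 7.70e-05 by limma), DIAPH2 by 0.31 and SPIRE1 by 0.21, the last lost in 6 refits.

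Of 20 further monomer-binding, capping and severing proteins, 4 rose and 1 fell, 25% together against 20.6% of all genes. Among these 20, 10 had a mean signal above the 75th percentile, a level at which 39.8% of genes were called. CAP2, a cyclase-associated protein that recycles actin monomers, fell from 9.38 ± 0.058 to 8.33 ± 0.071, a difference of −1.05 (limma adjusted p = 1.56e-07). The severing protein GSN (gelsolin) rose by 0.48, SVIL (supervillin) by 0.84, EPS8 by 0.41 and CAPG by 0.29, the last lost in 4 refits.

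Of 30 further crosslinking and stress fibre genes, 5 rose and 6 fell, 36.7% together against 20.6% of all genes. Among these 30, 12 had a mean signal above the 75th percentile, a level at which 39.8% of genes were called. ANLN (anillin), which gathers actin and myosin in the cleavage furrow, fell by 0.72 (SE 0.0546, limma adjusted p = 4.09e-06), and LIMA1, which stabilises stress fibres, by 0.70 (SE 0.0575, adjusted p = 7.92e-06). PLS1 fell by 0.33 and MYO1C by 0.22. CSRP1 (−0.26) and MYO6 (−0.17) fell with calls lost in 6 refits each. PLS3 (0.33), FHL3 (0.35) and PDLIM3 (0.24) rose in each refit, while SYNPO (0.27) was lost in 4 and MYO10 (0.17) in 1, and with each array centred on its median.

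**Figure D4:**
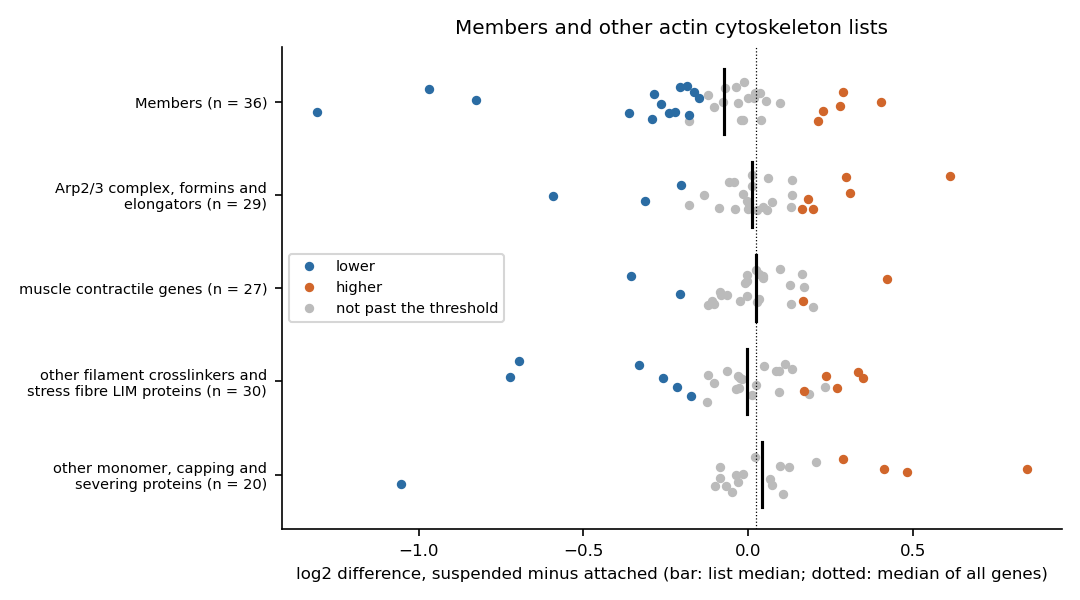
Log2 difference, suspended minus attached, of each gene in the member list and in 4 other lists, with calls in blue (lower) and orange (higher), the list median as a bar and the median of all genes as a dotted line. The members' median of −0.073 lies left of the dotted line at 0.024, and the medians of the other lists lie between −0.004 and 0.042.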

How the data were processed

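Per the labels' protocols, total RNA came from TRIzol extraction, and biotin was attached to 1 µg of it for each array with a kit known for labelling small RNAs; how this bears on the signals of messenger RNA was not tested. The authors deposited log2 signals for 33297 probe sets on 8 arrays; that they are log2 was judged from their range. Partek was used, per the submitters' processing notes; how background, normalization and probe summaries were handled is not given in the sources used here. Of the probe sets, 19460 had 1 gene symbol in the platform annotation, 1754 several and 12083 none; for 769 genes with several probe sets the one with the highest mean was used.

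Groups were compared over all 18417 genes with limma 3.58.1 in R 4.3.3 (lmFit, eBayes, two-sided, no covariate, Benjamini-Hochberg adjustment, threshold 0.05). Each SD covers a group's 4 arrays, the SE of a gene is limma's and the SE of a pair is from the group variances. Intervals are per gene and not adjusted. Members, lists and pairs were chosen with earlier results of these data known. All members have their difference or call given; members called with an absolute log2 difference of at least 0.3, and SRF, MRTFB, ACTB and ACTG1, have every array's value, and LMOD1, MYH9 and MYL9 were added after their values were seen. In other lists the 3 called genes with the smallest adjusted p per direction were to be named, with CCN1 as a reference; the further called ones and MYH11 are named outside this rule, after their values were seen. One further list of cytoskeletal genes is not reported here. The fit was also run on simulated data of 18417 genes drawn independently, with 100 changed 1.25-fold and 100 changed 2-fold. There limma recovered 56 of 100 and 100 of 100, with 9 false calls. Far fewer genes changed in that simulation than the 3787 called here, so its rates need not hold for the calls reported. Alternatives were array centring, quantile normalization, low-signal filters, probe set means, a trended robust fit, array weights, a replicate block and leaving out each array. Python 3.11.15, pandas 2.3.3, scipy 1.17.1 and matplotlib 3.10.9 were used. Precision is limited by having 4 arrays a group.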

Additional observations from a re-analysis of the deposited data

Results flagged for a closer look

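Among 72 sets of 4 arrays (36 members in each group), 5 had a highest or lowest array far from the other 3, with a gap, as a share of the range, above Dixon's 95% critical value; chance gives about 1 in 20. CALD1 read 7.70 in suspended replicate 3 against 7.43 to 7.46 in the other suspended arrays. Suspended replicate 4 was high for LMOD1 (5.85 against 5.52 to 5.58) and for PALLD (5.85 against 5.69 to 5.71). TPM4 was low in suspended replicate 1 (10.26 against 10.37 in the others), and ACTB was low in attached replicate 1 (12.74 against 12.76).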

How the results depend on the processing

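The 14 falls and 5 rises among members were 14 and 5 with each array centred on its median, with array weights, with probe set means and with only genes above the 25th percentile kept, and 15 and 4 with only those above the median. In that order, the share of all genes called lower was 11.3%, 10.3%, 10.2%, 14.6% and 22.3%. The filter at the median kept 32 members and removed LMOD1, so the rise of LMOD1 was not tested there. The falls numbered 16 with a trended robust fit, where 11.6% of all genes were called lower. They numbered 10 after quantile normalization, where that share was 9.17%. Quantile normalization lost MYL12B, ACTN1, CORO1C and PFN1 and moved the members' median to −0.029. It also turned ACTB to 0.024 and ACTG1 to 0.042, and ACTG1 ran from −0.032 to 0.0074 with 1 array left out, the latter without suspended replicate 4. With 1 array left out the falls ranged from 9 to 14 and the rises from 4 to 5, while 7.91% to 9.67% of all genes were called lower. Same-numbered arrays did not deviate together (r = −0.20 to 0.042, and 0 of 8 arrays correlated best with their own number). No pairing by replicate number was seen, but with 4 arrays a group this check cannot settle whether same-numbered cultures were handled together. With the replicate number as a block 1505 of all genes rose and 1517 fell. Among members 11 fell and 5 rose, with MYL12A, MYL12B and CORO1C lost. The pair differences with this block, tested by limma over the 14 pairs alone, passed for 8. The permutation test without the block called 0 pairs after adjustment. As both the test and the block differ, the change in count cannot be set down to the block. With 1 mismatch allowed a CArG box was found in 14 of 31 genes (45.2%, against 22.3% of all genes). The exact box, with no mismatch, lay within the 250 bases before the start in 7 of 31 genes (22.6%, against 1.44% of all genes). Without detection calls, low signals carry no statement of presence.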

Other observations

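Of 27 genes of muscle contraction measured, 9 had a mean below 5.28, and 2 rose and 2 fell, 14.8% together against 20.6% of all genes. MYOCD, the muscle cofactor of SRF, went from 5.56 ± 0.091 to 5.98 ± 0.117 (log2 difference 0.42, limma adjusted p = 0.000975, n = 4 per group). Its mean of 5.77 lay at percentile 35.7 of gene means, and without a background measure the size of its rise is uncertain. SMTN (smoothelin) fell by 0.36 (adjusted p = 0.00178 by limma), and SYNM rose by 0.17, a call lost with each array centred on its median and in 6 of the 8 refits with 1 array left out. TPM2, a member as well, was the other fall. The defining smooth muscle myosin MYH11 (0.045) was not past the test. MYOCD and MRTFB rose while SRF, which both bind, fell.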
